A study of Mus musculus with 6 samples.

Results

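The cardiac sarcomere and Z-disc genes are 37 of the 54532 genes counted in mouse hearts at embryonic day 9.5 (E9.5). They are the genes of the count table whose symbol is on a list of filament and Z-disc proteins of cardiac muscle. The list holds 8 genes of the thick filament, 8 of the thin filament, 6 of titin, the M-line and the MuRF ubiquitin ligases, and 15 of the Z-disc and its partners. All 37 had enough counts for the test.

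The sarcomere is the contractile unit of striated muscle, in which myosin thick filaments pull on actin thin filaments that are anchored at the Z-disc, while titin runs from the Z-disc to the M-line. Tropomyosin and the troponins let calcium control this pull, and several filament proteins have paralogs whose proportions differ between heart chambers and stages of development. Heart and skeletal muscle express SMYD1, a methyltransferase without which the embryonic heart does not form properly.

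RNA was sequenced from 6 hearts at E9.5, 3 WT and 3 *Smyd1-KO*, to compare the genotypes. The *Smyd1-KO* embryos are homozygous for a null allele of *Smyd1* in the whole embryo, not only in heart muscle, from the *Smyd1+/−* line of the Jackson Laboratory. Animals of both sexes were used. Each library was made from the heart of a single embryo, so that the *P*-values measure the spread between embryos.

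The total counts on genes were 60298758, 62485097 and 64217529 in WT hearts 1, 2 and 3, and 48627825, 60407307 and 58352183 in *Smyd1-KO* hearts 1, 2 and 3. Levels of a gene in different hearts are given as CPM (counts set to the same library size after edgeR's TMM scaling). Levels of different genes are compared as TPM (counts per kilobase of exon, scaled to the same total in each heart). A gene was called when its adjusted *P* in edgeR's quasi-likelihood test was under 0.05 and its log2 fold change between *Smyd1-KO* and WT hearts was 0.5 or more in either direction.

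*Smyd1* itself (ENSMUSG00000055027, GRCm38 chromosome 6, 71213940 to 71322233, reverse strand) stood at 414, 379 and 270 CPM in WT hearts 1, 2 and 3 and at 101, 222 and 206 CPM in the *Smyd1-KO* hearts 1, 2 and 3. All 3 *Smyd1-KO* hearts lay under all 3 WT hearts, with reads left on the gene in each of them. The deleted exons were not analysed here, so the values check the direction of the labels and not the loss of the protein. The log2 fold change was -1.01 (SE 0.30, adjusted *P*=0.0973 by edgeR, 0.00534 by DESeq2), and *Smyd1* was called by DESeq2 and not by edgeR.

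The tissue was checked against marker lists. All 16 cardiomyocyte genes outside the sarcomere had counts in every heart. Their most abundant gene by CPM was *Atp2a2*, the calcium pump of the sarcoplasmic reticulum, and their summed level was 3543, 3394 and 2393 CPM in WT hearts 1, 2 and 3 and 2102, 3981 and 3991 CPM in the *Smyd1-KO* hearts 1, 2 and 3. The median log2 fold change was 0.29, with 12 of the 16 positive. Negative values made up 25.0% of this list and 50.2% of all tested genes. The median of the members was -0.13, but 0.15 without *Smyd1-KO* heart 1 and 0.14 without WT heart 1. How the median of the 16 genes changed without those hearts was not examined. edgeR called 0 of the 16, 1 had an unadjusted *P* under 0.05, and DESeq2 called only *Nppa*, higher in *Smyd1-KO* hearts. The 10 endothelial and endocardial genes, led by *Kdr*, summed to 874, 928 and 757 CPM in WT and 765, 911 and 1163 CPM in the *Smyd1-KO* hearts 1, 2 and 3. The 8 smooth muscle genes, led by *Acta2*, which embryonic cardiomyocytes also express, summed to 2973, 2466 and 1640 CPM in WT and 1283, 2247 and 2352 CPM in the *Smyd1-KO* hearts.

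Among the other marker lists, the 7 epicardial and proepicardial genes summed to 122, 107 and 129 CPM in WT and 141, 205 and 266 CPM in the *Smyd1-KO* hearts 1, 2 and 3. Over all 6 hearts they were led by *Upk3b*, and in WT hearts by *Tbx18* (mean 26.3 CPM, against 24.1 CPM for *Upk3b*). The 6 foregut endoderm genes, led by *Cdh1*, summed to 97.8, 142 and 180 CPM in WT and 232, 175 and 114 CPM in the *Smyd1-KO* hearts. In *Smyd1-KO* heart 1 the largest of the 6 was *Sox2*, at 81.3 CPM against 8.51 to 32.8 CPM in the other hearts. Both lists had counts in all 6 hearts. The 6 atrial genes, led by *Nr2f2*, summed to 380, 384 and 427 CPM in WT and 367, 357 and 422 CPM in the *Smyd1-KO* hearts, and the 7 outflow tract and second heart field genes, led by *Bmp4*, to 192, 275 and 249 CPM in WT and 269, 293 and 171 CPM in the *Smyd1-KO* hearts. The 6 ventricular genes, led by *Hand1*, summed to 310, 336 and 276 CPM in WT and 399, 406 and 475 CPM in the *Smyd1-KO* hearts. These sums did not overlap, nor did those of the epicardial list. Each of the 6 ventricular genes did overlap, with *Irx3* highest in *Smyd1-KO* heart 1 (176 CPM) and *Hand1* in *Smyd1-KO* heart 3 (227 CPM). *Irx4* was at a log2 fold change of -0.43. edgeR called 0 genes of the endothelial, smooth muscle, epicardial, foregut, atrial, outflow and ventricular lists. At an unadjusted *P* under 0.05 there were 3 endothelial genes higher and 2 lower, 2 smooth muscle genes lower and 2 epicardial genes higher, and 0 in the other lists. All 8 smooth muscle genes had a negative log2 fold change (median -0.41) and all 7 epicardial genes a positive one (median 0.47). All 5 atrial genes tested were negative (median -0.06), and the other lists had both signs. DESeq2 called *Kdr*, *Wt1* and *Upk3b* higher and *Npr3*, *Nfatc1* and *Myh11* lower in *Smyd1-KO* hearts.

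Among the marker lists the erythroid genes had the lowest median log2 fold change, -2.65. The 8 genes, led by *Hba-x*, summed to 740, 986 and 948 CPM in WT hearts 1, 2 and 3 and to 24.0, 275 and 156 CPM in the *Smyd1-KO* hearts 1, 2 and 3, and all 8 lay lower in every *Smyd1-KO* heart. Of the 8, edgeR called *Alas2* lower and DESeq2 6, and *Epb42* was at 0 in *Smyd1-KO* heart 1. *Alas2* was called only without *Smyd1-KO* heart 1 among the fits that left out 1 heart, with adjusted *P* up to 0.157 in the others. With the replicate number as a block the *Alas2* call was lost too (adjusted *P*=0.0969 by edgeR). Genes of the mitochondrial genome took 1.34%, 1.15% and 1.17% of all gene counts in WT hearts 1, 2 and 3 and 0.758%, 0.691% and 0.622% in *Smyd1-KO* hearts 1, 2 and 3, without overlap. When these genes and those of haemoglobin were left out, 0 members changed sign. Otherwise the part of these differences in the results on the members was not tested.

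A pair of hearts stood apart in the members. Relative to the mean log2 CPM of its genotype, the median member deviated by 0.36, 0.09 and -0.45 in WT hearts 1, 2 and 3, and by -0.74, 0.37 and 0.35 in *Smyd1-KO* hearts 1, 2 and 3. WT heart 3 was the lowest WT heart in 33 of the 37 members and *Smyd1-KO* heart 1 the lowest *Smyd1-KO* heart in 36. Among all 19372 tested genes these hearts were the lowest of their genotype in 34.8% and 39.7%. The cardiomyocyte genes outside the sarcomere moved in the same hearts, with 16 of 16 lowest in WT heart 3 and 16 of 16 lowest in *Smyd1-KO* heart 1. Some other lists were low there too. Among the other sarcomere and costamere genes 29 of 35 were lowest in WT heart 3 and 29 of 35 in *Smyd1-KO* heart 1. For the cardiac transcription factors it was 14 of 15 and 13 of 15, and for the myosin chaperone genes 5 of 11 and 6 of 11. All 8 erythroid genes were lowest in *Smyd1-KO* heart 1 and 0 of 8 in WT heart 3. Of the endothelial and endocardial genes 8 of 10 were lowest in WT heart 3 and 8 of 10 in *Smyd1-KO* heart 1, and of the smooth muscle genes 7 of 8 and 5 of 8. Of the epicardial genes 5 of 7 were lowest in *Smyd1-KO* heart 1. The foregut endoderm genes went the other way, with 6 of 6 highest in WT heart 3 and 0 of 6 lowest in *Smyd1-KO* heart 1. Their median deviations there were 0.70 and 0.41. Of the outflow tract and second heart field genes 2 of 7 were lowest in each of these 2 hearts.

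**Figure D1:**
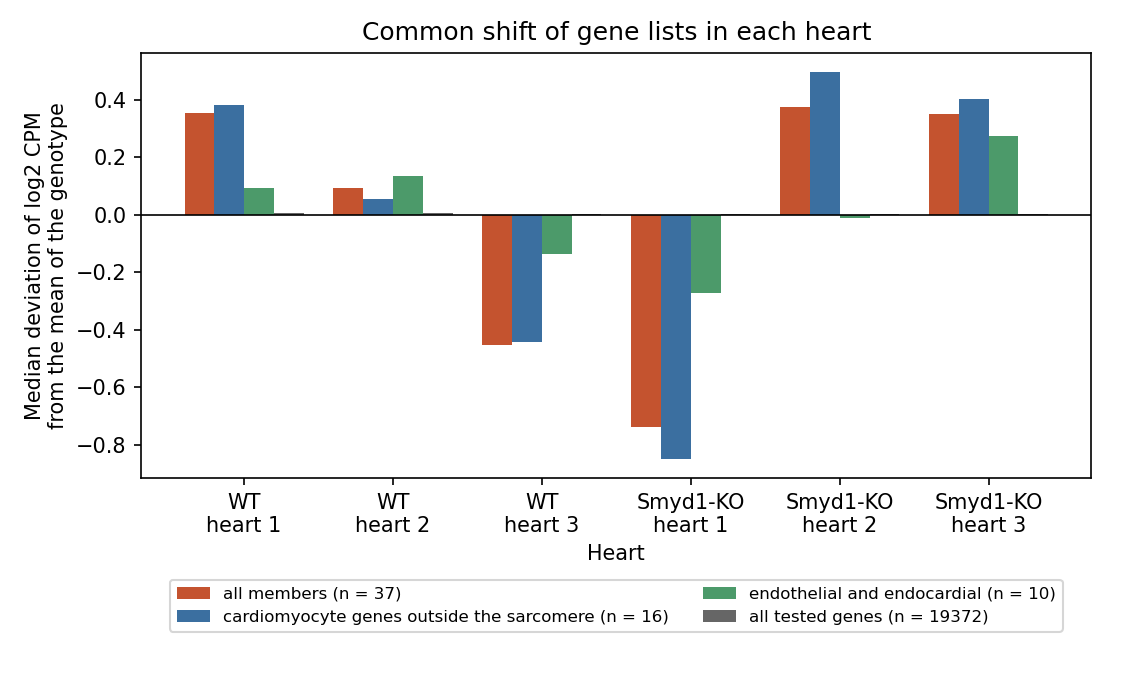
Bars give the median deviation of log2 CPM from the mean of the genotype in each heart (x axis), for the 37 members and 3 other lists. The members and the cardiomyocyte genes outside the sarcomere lie low in WT heart 3 and in *Smyd1-KO* heart 1, while the median of all tested genes lies near 0 in every heart.

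*Smyd1-KO* heart 1 differed in other markers too. The 7 skeletal myogenic genes summed to 1.26, 0.977 and 1.82 CPM in WT hearts 1, 2 and 3 and to 32.9, 1.69 and 0.438 CPM in the *Smyd1-KO* hearts 1, 2 and 3, led by *Pax3*, a gene of somites and neural tube, at 23.1 CPM in *Smyd1-KO* heart 1. Of these 7 genes 3 could be tested, edgeR and DESeq2 called 0 and 0 had an unadjusted *P* under 0.05. *Pax7*, *Myog* and *Myf5* were at 4.38, 2.61 and 2.18 CPM in *Smyd1-KO* heart 1 and under 1 CPM in every other heart, and *Myod1* and *Myf6* were under 1 CPM in all 6. Whether tissue from outside the heart was in this sample, and its part in the low values of the members there, was not tested.

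The spread between hearts was wide in the members. The median SD of log2 CPM over the 37 members was 0.44 in WT and 0.64 in *Smyd1-KO* hearts, against 0.18 and 0.20 over all tested genes. The SD lay above the median of all tested genes in 36 members in WT and in all 37 in *Smyd1-KO* hearts. In WT hearts the exception was *Mypn*.

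The members took 3.03%, 2.84% and 1.90% of all gene counts in WT hearts 1, 2 and 3 and 1.38%, 2.75% and 2.77% in *Smyd1-KO* hearts 1, 2 and 3. The widest 95% Wilson interval of these shares reached 0.00433 percentage points to either side, which covers counting error only. The means were 2.59% ± 0.603 in WT and 2.30% ± 0.798 in *Smyd1-KO* hearts (SD, n = 3), and the genotypes overlapped. Thick filament genes took 1.17%, 1.20% and 0.776% in WT and 0.539%, 1.15% and 1.17% in *Smyd1-KO* hearts. Thin filament genes took 1.33%, 1.05% and 0.723% in WT and 0.572%, 1.08% and 1.08% in *Smyd1-KO* hearts. In both role groups *Smyd1-KO* hearts 2 and 3 lay within the range of the WT hearts. Titin, the M-line and the MuRF ligases took 0.132%, 0.194% and 0.127% in WT and 0.0644%, 0.131% and 0.133% in *Smyd1-KO* hearts. Z-disc genes took 0.407%, 0.396% and 0.277% in WT and 0.202%, 0.389% and 0.386% in *Smyd1-KO* hearts, again with hearts 2 and 3 inside the WT range.

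Of the 37 members, edgeR called 0, where it called 830 of 19372 tested genes (4.28%), 555 of them higher (2.86%) and 275 lower in *Smyd1-KO* hearts (1.42%). The lowest adjusted *P* of a member by edgeR was 0.172. DESeq2 called 0 of the 36 members to which it gave an adjusted *P*, against 9.29% of its genes (5.98% higher and 3.31% lower), and gave none to *Xirp2*. At an unadjusted *P* under 0.05 edgeR listed 2 members, *Myh6* and *Lmod2*, both lower in the *Smyd1-KO* genotype, against 25.1% of all tested genes (13.1% higher and 11.9% lower). The genotypes did not overlap in 1 member, *Myh6*, where they did not overlap in 31.3% of all tested genes (15.9% with *Smyd1-KO* higher and 15.5% with *Smyd1-KO* lower). By each of these counts the members' share lay under that of all tested genes. These counts moved with single hearts. Over all genes edgeR called 501, 97 and 171 without WT hearts 1, 2 and 3, and 1256, 248 and 344 without *Smyd1-KO* hearts 1, 2 and 3. Members with an unadjusted *P* under 0.05 then numbered 0, 0 and 2, and 5, 2 and 1. With the wide spread between hearts, this does not show that the members did not differ.

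A negative log2 fold change was found in 25 of the 37 members, against 50.2% of all tested genes. The median of the members was -0.13 and that of all tested genes -0.0026 on the log2 scale. This direction rested on single hearts. The median of the members was 0.15 without *Smyd1-KO* heart 1 and 0.14 without WT heart 1, and 15 members changed sign in each case. These included 13 in common, *Myl4*, *Myl7*, *Actc1*, *Tpm1*, *Tnnt2*, *Tnni3*, *Tnnc1*, *Actn2*, *Csrp3*, *Nebl*, *Myoz2*, *Synpo2l* and *Cmya5*. *Mybpc3* and *Tnni1* changed sign only without *Smyd1-KO* heart 1, and *Trim54* and *Tcap* only without WT heart 1. Without WT heart 3 it was -0.34. Without *Smyd1-KO* heart 1, 1 member was called, *Myh7*, which is described below.

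**Figure D2:**
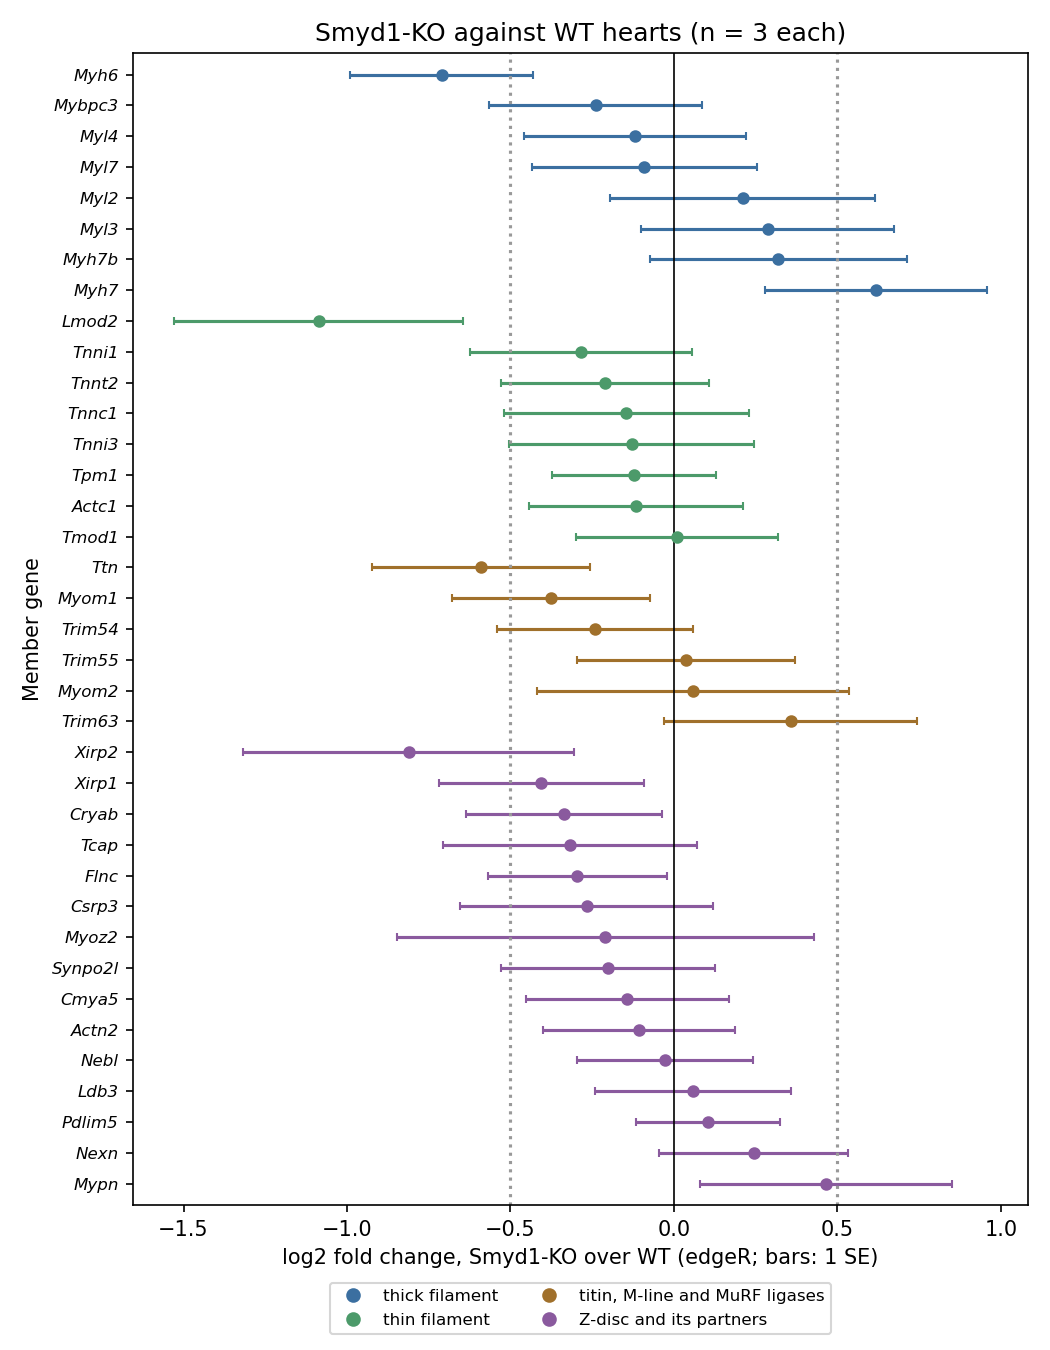
Points are log2 fold changes of *Smyd1-KO* over WT hearts (x axis) by edgeR for each of the 37 members (y axis), colored by role, with bars of 1 SE, and dotted lines at the size needed for a call. They run from -1.09 in *Lmod2* to 0.62 in *Myh7*, and 0 members were called.

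Per length, actin led the members. In WT hearts *Actc1* was the highest at 11538 ± 3403 TPM (SD, n = 3), followed by *Myl7* at 8586 ± 2348 TPM. *Myh6* (1954 ± 411 TPM) and *Tnnc1* (1478 ± 483 TPM) came next, and in both of these pairs the neighbors differed by less than their SDs added together. *Tpm1*, *Mybpc3*, *Myl4*, *Myh7*, *Tnnt2*, *Myl3*, *Myl2* and *Tnni1* followed between 1022 and 611 TPM, where neighbors in the order lay within an SD of each other. The highest Z-disc gene by the union of exons was *Actn2*, 13th at 486 ± 107 TPM, and the highest of the titin group was *Trim55* at rank 20 with 186 ± 30.5 TPM. *Ttn*, with the longest transcript of the members, ranked 32 at 26.3 ± 10.1 TPM. The lowest were *Cmya5* (1.54 TPM), *Myoz2* (1.21 TPM), *Mypn* (0.647 TPM), *Myom2* (0.147 TPM) and *Xirp2* (0.0727 TPM). In *Smyd1-KO* hearts *Actc1* and *Myl7* led as well, and *Myh7* ranked 5th at 1121 ± 444 TPM against 8th at 755 ± 176 TPM in WT hearts. The order below *Myl7* depends on the length used, and with principal transcripts *Myh6* ranked 6th and *Tnnt2* 3rd in WT hearts.

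The thick filament genes split into 4 with a negative and 4 with a positive log2 fold change, with a median of 0.06. *Myh6* (ENSMUSG00000040752, GRCm38 chromosome 14, 54941921 to 54966927, reverse strand) encodes alpha myosin heavy chain, the fast myosin motor of the heart. It was measured at 3735, 4586 and 2925 CPM in WT hearts 1, 2 and 3 and at 1407, 2622 and 2843 CPM in the *Smyd1-KO* hearts 1, 2 and 3. Every *Smyd1-KO* heart lay under every WT heart, with *Smyd1-KO* heart 3 and WT heart 3 close together and *Smyd1-KO* heart 1 far below. The log2 fold change was -0.71 (SE 0.28, adjusted *P*=0.172 by edgeR, 0.0530 by DESeq2). It was -0.46 without *Smyd1-KO* heart 1 and between -0.89 and -0.54 without each of the other hearts, and *Myh6* was called in 0 of these fits.

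*Myh7*, which encodes the slower beta myosin heavy chain, lies 3756 bp upstream of *Myh6* on the same strand, from 54970684 to 54994626. It stood at 1980, 2260 and 1341 CPM in WT hearts 1, 2 and 3 and at 1517, 3612 and 3434 CPM in the *Smyd1-KO* hearts 1, 2 and 3. *Smyd1-KO* hearts 2 and 3 lay above every WT heart, and *Smyd1-KO* heart 1 lay within the WT range. The log2 fold change was 0.62 (SE 0.34, adjusted *P*=0.306 by edgeR, 0.173 by DESeq2). Without *Smyd1-KO* heart 1 it was 0.92 and *Myh7* was called higher (adjusted *P*=0.0467 by edgeR). *Myh6* and *Myh7* are nearly identical in much of their coding sequence, so reads may have been assigned to the wrong copy. *Myh7* also shares 6.07%, 5.62% and 1.65% of its exonic bases with the antisense genes *Gm31251*, *Mhrt* and *Gm29015*, and the strand setting of the counting is not stated.

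Counts of the heavy chains were compared within each heart, where the scaling of the library plays no part. The raw count of *Myh7* divided by that of *Myh6* was 0.530, 0.493 and 0.458 in WT hearts 1, 2 and 3 and 1.08, 1.38 and 1.21 in *Smyd1-KO* hearts 1, 2 and 3. In WT hearts *Myh6* had more counts than *Myh7*, and in all 3 *Smyd1-KO* hearts *Myh7* had more. Per length of exon, *Myh6* made up 70.7%, 72.2% and 73.6% of the sum of *Myh6* and *Myh7* in WT hearts 1, 2 and 3 and 54.3%, 48.2% and 51.5% in *Smyd1-KO* hearts 1, 2 and 3. The means were 72.2% ± 1.46 and 51.3% ± 3.06 (SD, n = 3), a difference of -20.9 percentage points that is larger than the spread between hearts. *Smyd1-KO* heart 1, the lowest heart in nearly all members, had the highest *Myh6* share of its genotype.

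The 4 myosin light chains form 2 pairs here. *Myl7*, the regulatory light chain of atrial and early ventricular muscle (ENSMUSG00000020469, chromosome 11, 5896637 to 5898782), stood at 1889, 1520 and 960 CPM in WT hearts 1, 2 and 3 and at 772, 1614 and 1717 CPM in the *Smyd1-KO* hearts 1, 2 and 3. The genotypes overlapped, with WT heart 3 and *Smyd1-KO* heart 1 low, and the log2 fold change was -0.09 (SE 0.34, adjusted *P*=0.897 by edgeR). It was 0.19 without *Smyd1-KO* heart 1 and 0.15 without WT heart 1. *Myl2*, the ventricular regulatory light chain, had a log2 fold change of 0.21 (SE 0.41), and of -0.02 without *Smyd1-KO* heart 2 and without WT heart 3. Its share of the sum of *Myl2* and *Myl7* per length was 7.66%, 6.91% and 7.22% in WT and 7.49%, 9.66% and 8.68% in *Smyd1-KO* hearts 1, 2 and 3. *Smyd1-KO* hearts 2 and 3 lay above all WT hearts in this share and *Smyd1-KO* heart 1 did not, so the genotypes overlapped.

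The essential light chains gave a clearer split. *Myl3*, the ventricular form, stood at 577, 412 and 272 CPM in WT and 259, 648 and 630 CPM in the *Smyd1-KO* hearts 1, 2 and 3 (log2 fold change 0.29, SE 0.39, adjusted *P*=0.687 by edgeR; from 0.05 without WT heart 3 to 0.61 without *Smyd1-KO* heart 1). *Myl4*, the atrial and embryonic form, stood at 1621, 1213 and 824 CPM in WT and 636, 1354 and 1378 CPM in the *Smyd1-KO* hearts (log2 fold change -0.12, SE 0.34). Without *Smyd1-KO* heart 1 the *Myl4* value was 0.17 and without WT heart 1 it was 0.15. Both genes overlapped between the genotypes as levels. *Myl3* made up 44.7%, 43.5% and 42.8% of the sum of *Myl3* and *Myl4* per length in WT hearts 1, 2 and 3 and 48.1%, 52.1% and 50.9% in *Smyd1-KO* hearts 1, 2 and 3. The means were 43.7% ± 0.927 and 50.3% ± 2.06 (SD, n = 3), 6.67 percentage points apart, and the genotypes did not overlap. The level of a share depends on the lengths used, and with principal transcripts the means were 25.6% and 31.0%, again without overlap.

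**Figure D3:**
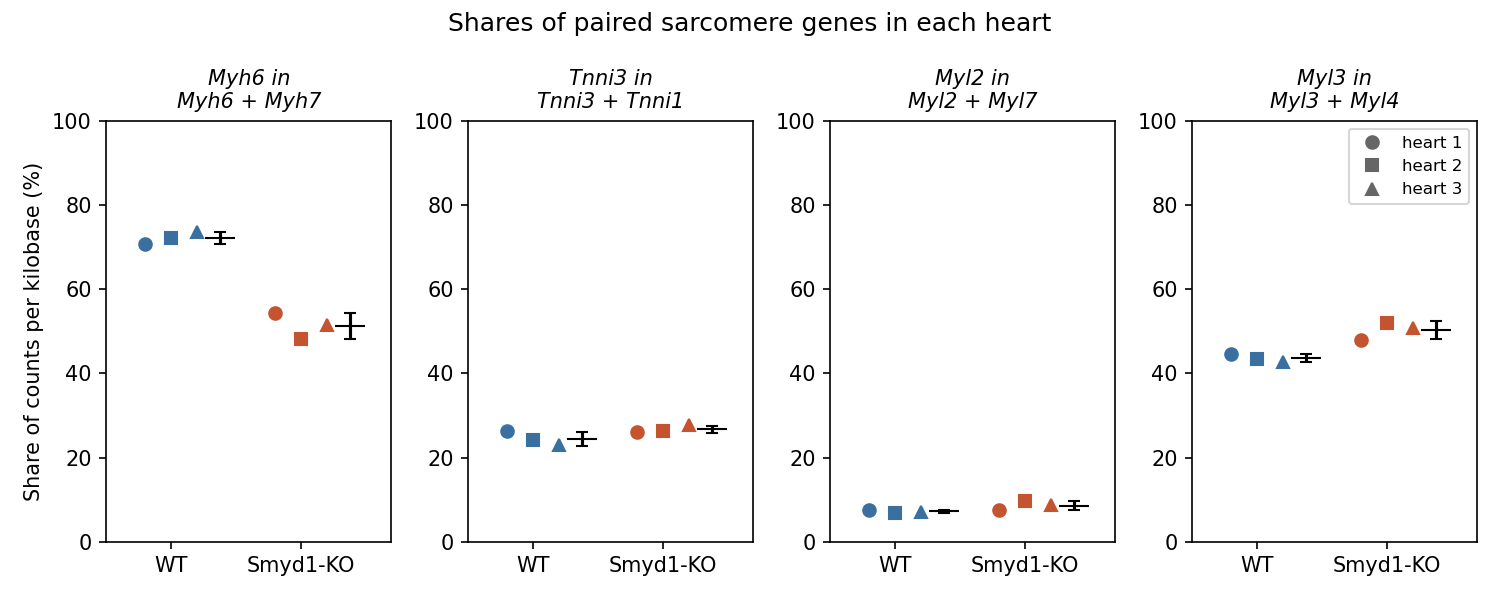
Points are the share (y axis, percent of counts per kilobase) of the first-named gene in the sum of a gene pair, in each WT (blue) and *Smyd1-KO* (red) heart, and black marks beside them give the mean ± SD of 3 hearts. The genotypes do not overlap for *Myh6* (means 72.2% and 51.3%) and for *Myl3* (43.7% and 50.3%), and overlap for *Tnni3* and *Myl2*. Lengths are those of the union of exons, and the level of each share depends on them.

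The remaining thick filament genes were *Mybpc3* and *Myh7b*. *Mybpc3*, which encodes the cardiac myosin-binding protein C that crosslinks and tunes the thick filament, stood at 1414, 1357 and 870 CPM in WT and 563, 1252 and 1269 CPM in the *Smyd1-KO* hearts 1, 2 and 3. The genotypes overlapped (log2 fold change -0.24, SE 0.33, adjusted *P*=0.690 by edgeR). *Myh7b*, a further myosin heavy chain gene, stood at 66.4, 70.5 and 44.8 CPM in WT and 33.3, 86.0 and 107 CPM in the *Smyd1-KO* hearts (log2 fold change 0.32, SE 0.39). *Smyd1-KO* heart 1 was the lowest heart for both genes, and without it *Mybpc3* was at 0.06. *Myh7b* was at 0.68 without *Smyd1-KO* heart 1 and at -0.02 without *Smyd1-KO* heart 3.

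The thin filament genes had 7 negative log2 fold changes and 1 positive, with a median of -0.14. *Actc1* (ENSMUSG00000068614, chromosome 2, 114047282 to 114053548, reverse strand) encodes cardiac alpha actin, the main actin of the thin filament. It stood at 7216, 5398 and 3506 CPM in WT hearts 1, 2 and 3 and at 3064, 5879 and 5930 CPM in the *Smyd1-KO* hearts 1, 2 and 3. *Smyd1-KO* hearts 2 and 3 lay between WT hearts 1 and 2, and *Smyd1-KO* heart 1 lay lowest. The log2 fold change was -0.12 (SE 0.33, adjusted *P*=0.858 by edgeR). *Tnnc1* (ENSMUSG00000091898, chromosome 14, 31208312 to 31211729), the calcium-binding troponin of cardiac and slow muscle, stood at 603, 456 and 271 CPM in WT and 218, 502 and 482 CPM in the *Smyd1-KO* hearts. WT heart 1 was again highest and *Smyd1-KO* heart 1 lowest, and the log2 fold change was -0.15 (SE 0.38, adjusted *P*=0.843 by edgeR). Without *Smyd1-KO* heart 1 the log2 fold change was 0.14 for *Actc1* and 0.15 for *Tnnc1*, and without WT heart 1 it was 0.16 and 0.15.

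*Lmod2* (ENSMUSG00000029683, chromosome 6, 24597762 to 24605414) encodes leiomodin 2, which binds the pointed end of the thin filament and lengthens it. It stood at 38.4, 19.6 and 14.9 CPM in WT hearts 1, 2 and 3 and at 5.90, 15.6 and 12.7 CPM in the *Smyd1-KO* hearts 1, 2 and 3. *Smyd1-KO* heart 2 lay just above WT heart 3, so the genotypes overlapped, and WT heart 1 was far above the rest. The log2 fold change of -1.09 (SE 0.44, adjusted *P*=0.184 by edgeR, 0.209 by DESeq2) was the lowest of the members. It was -0.58 without WT heart 1, -0.78 without *Smyd1-KO* heart 1 and between -1.38 and -1.17 without each of the other hearts. Its pointed-end partner *Tmod1*, which encodes tropomodulin 1, the cap that stops elongation, stood at 132, 116 and 80.6 CPM in WT and 62.2, 132 and 136 CPM in the *Smyd1-KO* hearts (log2 fold change 0.01, SE 0.31, and -0.14, -0.17 and -0.17 without *Smyd1-KO* heart 2, *Smyd1-KO* heart 3 and WT heart 3). *Tmod1* shares 32.6% of its exonic bases with *Tstd2* on the opposite strand.

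The troponin T gene *Tnnt2*, which anchors the troponin complex on tropomyosin, stood at 2093, 1688 and 1134 CPM in WT and 832, 1705 and 1708 CPM in the *Smyd1-KO* hearts 1, 2 and 3 (log2 fold change -0.21, SE 0.32). *Tpm1*, the main tropomyosin gene of the heart, stood at 2374, 1896 and 1435 CPM in WT and 1199, 2005 and 2039 CPM in the *Smyd1-KO* hearts (log2 fold change -0.12, SE 0.25). Both overlapped between the genotypes, and turned positive without *Smyd1-KO* heart 1 (0.06 and 0.09) and without WT heart 1 (0.01 and 0.08). Troponin I comes from *Tnni1*, the slow skeletal form that prevails in the embryo, and *Tnni3*, the form of the adult heart. *Tnni1* had a log2 fold change of -0.28 (SE 0.34) and *Tnni3* of -0.13 (SE 0.38), which were 0.02 and 0.18 without *Smyd1-KO* heart 1, and *Tnni3* was at 0.17 without WT heart 1. *Tnni3* made up 26.2%, 24.2% and 23.0% of their sum per length in WT and 26.2%, 26.4% and 27.7% in *Smyd1-KO* hearts 1, 2 and 3. The means were 24.5% ± 1.63 and 26.7% ± 0.800 (SD, n = 3), and WT heart 1 lay above *Smyd1-KO* heart 1.

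Titin, the M-line and the MuRF ligases had 3 negative and 3 positive log2 fold changes, with a median of -0.10. *Ttn*, which encodes the giant spring titin, stood at 608, 1229 and 767 CPM in WT hearts 1, 2 and 3 and at 348, 684 and 698 CPM in the *Smyd1-KO* hearts 1, 2 and 3. *Smyd1-KO* hearts 2 and 3 lay above WT heart 1, and WT heart 2 was the highest, which set *Ttn* apart from most members, where WT heart 1 was highest. The log2 fold change was -0.59 (SE 0.33, adjusted *P*=0.319 by edgeR), -0.26 without WT heart 2 and -0.33 without *Smyd1-KO* heart 1. *Myom1* (ENSMUSG00000024049, chromosome 17, 71002633 to 71126856), which encodes myomesin, the crosslinker of myosin and titin at the M-line, stood at 481, 472 and 309 CPM in WT and 187, 398 and 388 CPM in the *Smyd1-KO* hearts. WT hearts 1 and 2 lay above all *Smyd1-KO* hearts (log2 fold change -0.38, SE 0.30, adjusted *P*=0.482 by edgeR), and without *Smyd1-KO* heart 1 the value was -0.10.

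*Trim55* (ENSMUSG00000060913, chromosome 3, 19644474 to 19692421) encodes MuRF2, a ubiquitin ligase that binds titin at the M-line. It stood at 167, 149 and 109 CPM in WT hearts 1, 2 and 3 and at 74.7, 173 and 189 CPM in the *Smyd1-KO* hearts 1, 2 and 3. *Smyd1-KO* hearts held the highest and the lowest value, with a log2 fold change of 0.04 (SE 0.33, adjusted *P*=0.958 by edgeR) and values of -0.10, -0.19 and -0.12 without *Smyd1-KO* heart 2, *Smyd1-KO* heart 3 and WT heart 3. *Trim63*, which encodes MuRF1, stood at 47.8, 38.2 and 25.7 CPM in WT and 22.4, 58.3 and 62.4 CPM in the *Smyd1-KO* hearts (log2 fold change 0.36, SE 0.39; from 0.12 without *Smyd1-KO* heart 3 to 0.70 without *Smyd1-KO* heart 1). *Trim54*, which encodes MuRF3, had a log2 fold change of -0.24 (SE 0.30; 0.01 without WT heart 1) and shares 26.6% of its exonic bases with an antisense gene. *Myom2*, which encodes the M-line component M-protein, rested on 12 to 32 counts per heart, at 0.180 to 0.543 CPM.

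Of the 15 Z-disc genes and partners, 11 had a negative and 4 a positive log2 fold change, with a median of -0.20. *Actn2* (ENSMUSG00000052374, chromosome 13, 12269426 to 12340760, reverse strand) encodes alpha-actinin 2, which crosslinks the actin filaments of adjoining sarcomeres. It stood at 633, 581 and 372 CPM in WT hearts 1, 2 and 3 and at 302, 603 and 569 CPM in the *Smyd1-KO* hearts 1, 2 and 3. *Smyd1-KO* hearts 2 and 3 lay within the WT range (log2 fold change -0.11, SE 0.29, adjusted *P*=0.855 by edgeR). With 1 heart left out it was 0.15 without *Smyd1-KO* heart 1 and 0.05 without WT heart 1. *Cryab* (ENSMUSG00000032060, chromosome 9, 50751325 to 50756636), which encodes the small heat shock protein alpha B-crystallin that binds desmin and titin, stood at 216, 172 and 109 CPM in WT and 85.1, 152 and 157 CPM in the *Smyd1-KO* hearts. WT hearts 1 and 2 lay above all *Smyd1-KO* hearts and WT heart 3 did not (log2 fold change -0.34, SE 0.30, adjusted *P*=0.528 by edgeR; -0.10 without *Smyd1-KO* heart 1 and -0.09 without WT heart 1). *Cryab* shares 17.0% of its exonic bases with *Hspb2* on the opposite strand.

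Z-disc genes of actin crosslinking and signaling followed the same hearts. *Flnc*, which encodes the muscle filamin, stood at 722, 923 and 587 CPM in WT and 377, 695 and 746 CPM in the *Smyd1-KO* hearts 1, 2 and 3 (log2 fold change -0.30, SE 0.27; -0.05 without *Smyd1-KO* heart 1 and -0.11 without WT heart 2). *Nexn*, which encodes the actin-binding protein nexilin, stood at 419, 334 and 255 CPM in WT and 240, 471 and 484 CPM in the *Smyd1-KO* hearts (log2 fold change 0.24, SE 0.29; from 0.08 without WT heart 3 or *Smyd1-KO* heart 3 to 0.51 without *Smyd1-KO* heart 1). *Smyd1-KO* heart 1 was the lowest heart in both, and hearts 2 and 3 of that genotype were the highest in *Nexn* only. *Xirp1*, which encodes the actin-binding repeat protein Xin, stood at 205, 200 and 131 CPM in WT and 75.0, 170 and 160 CPM in the *Smyd1-KO* hearts (log2 fold change -0.41, SE 0.31; -0.12 without *Smyd1-KO* heart 1). *Ldb3*, which encodes the PDZ-LIM protein ZASP, stood at 283, 262 and 180 CPM in WT and 145, 312 and 299 CPM in the *Smyd1-KO* hearts (log2 fold change 0.06, SE 0.30, and -0.12, -0.08 and -0.11 without *Smyd1-KO* heart 2, *Smyd1-KO* heart 3 and WT heart 3). *Xirp1* was under WT hearts 1 and 2 in all *Smyd1-KO* hearts, and *Ldb3* was not.

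The other abundant Z-disc genes overlapped between the genotypes. Their log2 fold changes were -0.03 in *Nebl* (the nebulin relative nebulette), 0.10 in *Pdlim5* (a PDZ-LIM scaffold), -0.20 in *Synpo2l* (an actin-associated protein), -0.27 in *Csrp3* (muscle LIM protein) and -0.32 in *Tcap* (telethonin, which caps titin). Without WT heart 1 they were positive in *Nebl*, *Synpo2l*, *Csrp3* and *Tcap* (0.04, 0.02, 0.14 and 0.04), and without *Smyd1-KO* heart 1 in *Nebl*, *Synpo2l* and *Csrp3* (0.24, 0.09 and 0.02). *Nebl* was also positive without WT heart 2 (0.06), and *Pdlim5* was between -0.02 and -0.01 without *Smyd1-KO* heart 2, *Smyd1-KO* heart 3 or WT heart 3. *Csrp3* ranged from 88.3 CPM in *Smyd1-KO* heart 1 to 283 CPM in WT heart 1, and *Tcap* from 8.17 to 26.3 CPM in the same hearts. The low genes carried little weight. *Xirp2* had 5 to 23 counts per heart (log2 fold change -0.81, SE 0.51), from -1.21 without *Smyd1-KO* heart 2 to -0.47 without WT heart 3. *Mypn*, which encodes myopalladin, had 33 to 110 (0.47, SE 0.39), from 0.23 without *Smyd1-KO* heart 3 to 0.81 without *Smyd1-KO* heart 1. *Myoz2*, which encodes calsarcin-1, had 20 to 133 (-0.21, SE 0.64), with 0.17 without *Smyd1-KO* heart 1 and 0.58 without WT heart 1. *Cmya5*, which encodes myospryn, had 163 to 388 counts (log2 fold change -0.14, SE 0.31; 0.05 without *Smyd1-KO* heart 1 and 0.06 without WT heart 1) and shares 20.7% of its exonic bases with an antisense gene.

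**Figure D4:**
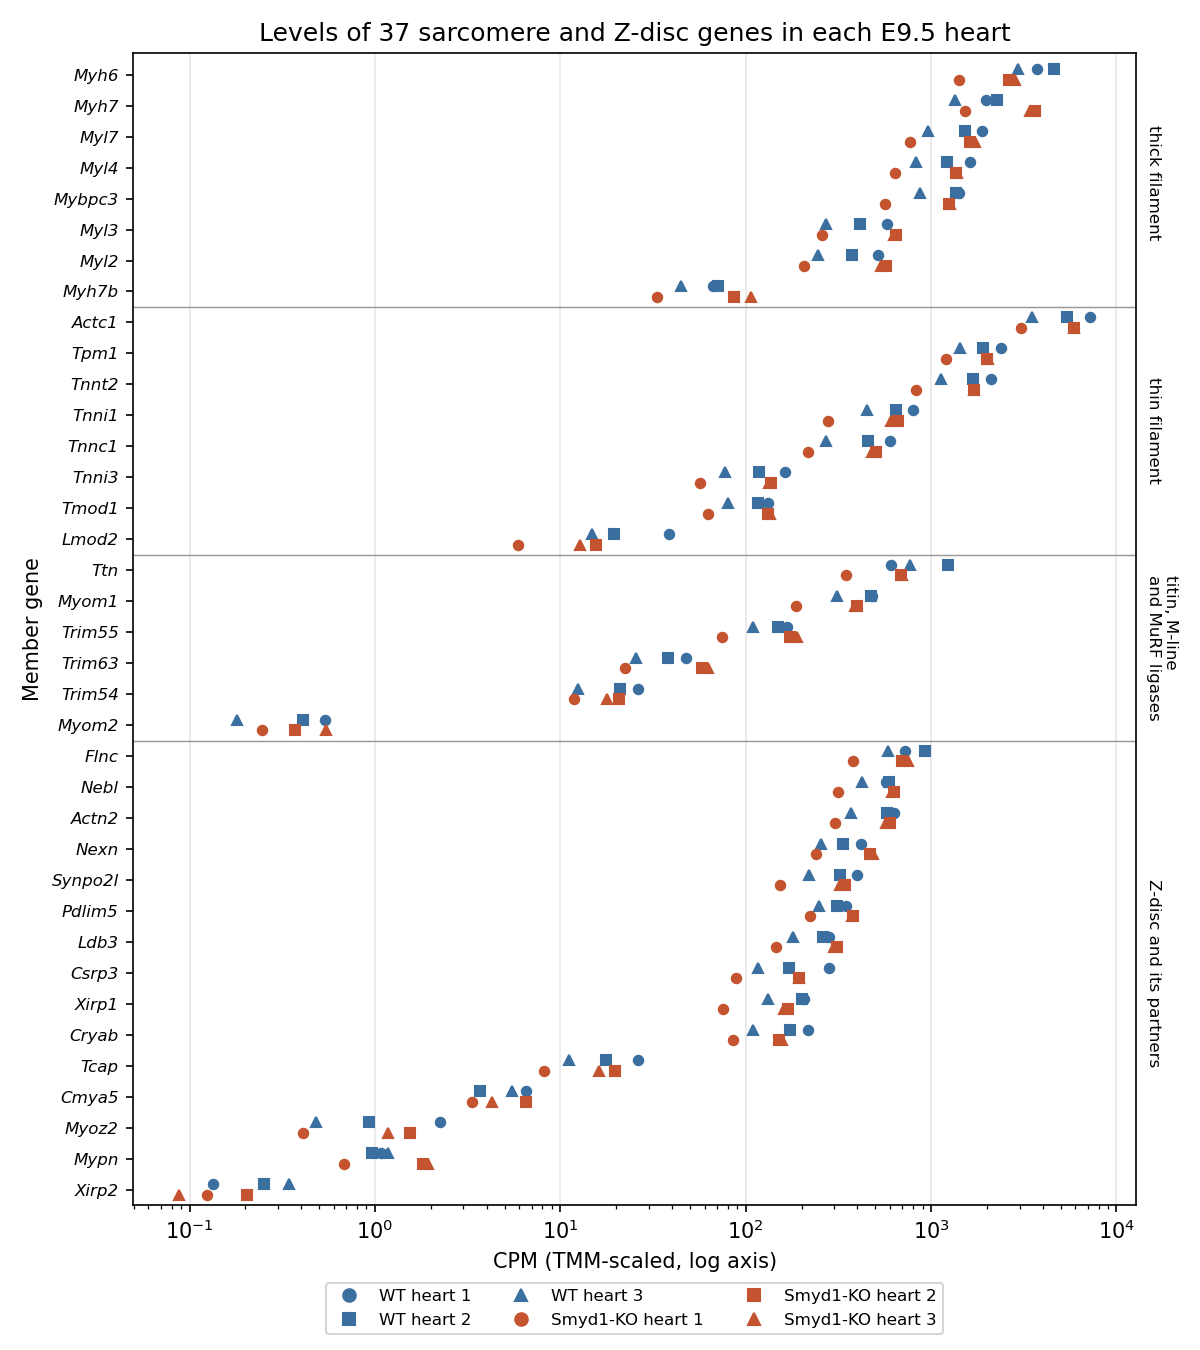
Points give the level of each of the 37 members (y axis, by role) in each heart as TMM-scaled CPM on a log axis, with WT hearts in blue and *Smyd1-KO* hearts in red, and 1 symbol for each heart number. *Smyd1-KO* heart 1 lies lowest of its genotype in 36 of the 37 members, and *Myh6* is the only member in which every red point lies left of every blue point.

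Since the members moved together from heart to heart, each was also set against the sum of the members' counts in its own heart. On this scale the genotypes did not overlap in 11 members, against 9.89% of all tested genes treated the same way (7.65% with *Smyd1-KO* higher and 2.24% with *Smyd1-KO* lower). *Smyd1-KO* hearts were higher in 6 members, *Myh7*, *Myl3*, *Tmod1*, *Trim63*, *Ldb3* and *Nexn*. They were lower in 5, *Myh6*, *Mybpc3*, *Lmod2*, *Myom1* and *Xirp1*. The scale takes out the movement that the members share and adds it to all other genes, which lowers the percentage of all tested genes, so the count of members is not an excess over it. The shares add up to 100% in each heart, so they are not independent of each other, and they were not tested.

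The myosin heavy chains moved the most counts within the members. *Myh6* took 12.2%, 16.4% and 15.9% of the members' counts in WT hearts 1, 2 and 3 and 10.2%, 9.33% and 10.1% in *Smyd1-KO* hearts 1, 2 and 3. *Myh7* took 6.45%, 8.09% and 7.31% in WT and 11.0%, 12.8% and 12.1% in *Smyd1-KO* hearts. The 3 *Smyd1-KO* hearts lay close together in both shares, *Smyd1-KO* heart 1 included. *Nexn* took 1.37%, 1.20% and 1.39% in WT and 1.74%, 1.67% and 1.71% in *Smyd1-KO* hearts, and *Myom1* 1.57%, 1.69% and 1.69% and 1.36%, 1.42% and 1.37%. *Actc1*, the largest single share, took 23.5%, 19.3% and 19.1% in WT and 22.3%, 20.9% and 21.0% in *Smyd1-KO* hearts, with overlap. *Ttn* took 1.98%, 4.40% and 4.18% in WT and 2.53%, 2.43% and 2.47% in *Smyd1-KO* hearts, so WT heart 1 differed from the other two WT hearts more than the genotypes did.

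Promoters of 31 of the 37 members were found in a RefSeq table of 32851 promoters of GRCm38.p6, each 300 bases long with 250 before and 50 from the annotated start. *Cryab*, *Myom2*, *Nexn*, *Tcap*, *Trim55* and *Xirp1* had no entry. Letters were searched on both strands, with no test. The MCAT motif GGAATG was found in 14 of the 31 (45.2%) against 14.7% of all promoters, and the CArG box, the site type of serum response factor, in 5 (16.1%) against 1.63%. The GATA motif AGATAA was found in 6 (19.4%) against 11.2%, and TATAAA in 4 (12.9%) against 13.6%. The 5 members with a CArG box were *Actc1*, *Ldb3*, *Myl3*, *Myl7* and *Myom1*. A match describes letters in this window and is not evidence of binding.

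The promoters of *Myh6* (chr14:54966558-54966857, reverse strand), *Myh7* (chr14:54994577-54994876, reverse strand, the first of its 2 entries) and *Myl3* (chr9:110763428-110763727, forward strand) are shown. These genes had shares that did not overlap between the genotypes, as did other members that are not shown. The promoters printed are RefSeq sequence of build GRCm38.p6, written 5′ to 3′ on the strand of the gene. Capitals mark GGAATG at bases 45 to 50 and TATAAA at bases 252 to 257 in *Myh6*, and GGAATG at bases 50 to 55 in *Myh7*. In *Myl3* they mark GGAATG at bases 74 to 79, its reverse complement at bases 102 to 107 and a CArG box at bases 166 to 175. The *Myh6* and *Myl3* windows lie inside the genes as annotated by GENCODE, which places their outermost starts further upstream. The TATAAA match of *Myh6* begins 1 base after the annotated start of its entry, not before it.
Myh6: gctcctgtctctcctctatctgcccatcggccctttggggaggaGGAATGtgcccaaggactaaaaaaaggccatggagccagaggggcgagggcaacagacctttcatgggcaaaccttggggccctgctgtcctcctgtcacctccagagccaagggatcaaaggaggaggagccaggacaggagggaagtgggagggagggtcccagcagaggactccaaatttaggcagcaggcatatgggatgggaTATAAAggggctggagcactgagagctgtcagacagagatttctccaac
Myh7: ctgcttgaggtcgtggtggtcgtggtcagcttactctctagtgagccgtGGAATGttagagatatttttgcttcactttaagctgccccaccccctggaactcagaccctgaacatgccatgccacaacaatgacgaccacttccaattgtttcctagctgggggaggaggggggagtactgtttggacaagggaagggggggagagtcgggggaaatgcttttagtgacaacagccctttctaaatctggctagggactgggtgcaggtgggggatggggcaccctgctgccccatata
Myl3: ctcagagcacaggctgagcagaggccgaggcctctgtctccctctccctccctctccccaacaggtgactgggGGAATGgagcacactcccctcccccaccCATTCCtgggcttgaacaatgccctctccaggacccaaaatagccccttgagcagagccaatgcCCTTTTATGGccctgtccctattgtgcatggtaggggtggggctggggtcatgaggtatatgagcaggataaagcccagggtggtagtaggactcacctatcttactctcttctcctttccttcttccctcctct

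The chaperones that fold myosin are the nearest partners of the members. Of 11 myosin folding and sarcomere chaperone genes, edgeR called 0 higher and 1 lower, with a median log2 fold change of -0.08. At an unadjusted *P* under 0.05 by edgeR, 1 was higher and 2 were lower. The gene called was *Unc45a*, the broadly expressed myosin co-chaperone, at 48.7, 60.4 and 54.7 CPM in WT hearts 1, 2 and 3 and 39.2, 35.0 and 35.4 CPM in the *Smyd1-KO* hearts 1, 2 and 3. All *Smyd1-KO* hearts lay under all WT hearts, and *Unc45a* fell by 0.58 on the log2 scale (SE 0.10, adjusted *P*=0.0260 by edgeR). The call held without WT heart 1 and without *Smyd1-KO* heart 1, and was lost without WT heart 2, WT heart 3, *Smyd1-KO* heart 2 or *Smyd1-KO* heart 3 (adjusted *P* of 0.117, 0.0997, 0.0984 and 0.0786 by edgeR). DESeq2 called *Unc45a* and *Smyd1* lower. The most abundant of the list by CPM were *Hsp90ab1* and *Hspa8*. *Hsp90ab1* stood at 5039, 4736 and 4975 CPM in WT and 6175, 5974 and 5409 CPM in the *Smyd1-KO* hearts (log2 fold change 0.25, SE 0.10, adjusted *P*=0.174 by edgeR). Every *Smyd1-KO* heart lay above every WT heart in this gene, as in 15.9% of all tested genes. *Hspa8* stood at 2075, 1779 and 1999 CPM in WT and 1873, 2484 and 2228 CPM in the *Smyd1-KO* hearts (log2 fold change 0.17).

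Of 40 other sarcomere and costamere genes of striated muscle, 35 could be tested, and edgeR called 0 of them, with 1 higher and 5 lower at an unadjusted *P* under 0.05 and a median log2 fold change of -0.08. DESeq2 called 0 higher and 3 lower, *Nrap*, *Myot* and *Pdlim3*. *Ankrd1*, a stretch-responsive partner of titin and the most abundant by CPM, stood at 869, 421 and 293 CPM in WT and 393, 677 and 662 CPM in the *Smyd1-KO* hearts 1, 2 and 3. *Acta1*, the skeletal alpha actin that the embryonic heart also expresses, stood at 593, 456 and 263 CPM in WT and 379, 701 and 780 CPM in the *Smyd1-KO* hearts (log2 fold change 0.50). Both overlapped between the genotypes, and *Myoz3* had 0 counts in every heart. Of 15 cardiac transcription factors, edgeR and DESeq2 called 0, and 2 were lower at an unadjusted *P* under 0.05, with a median log2 fold change of -0.14. The most abundant were *Nkx2-5*, at 347, 340 and 213 CPM in WT and 158, 312 and 345 CPM in the *Smyd1-KO* hearts, and *Gata4*, at 275, 299 and 223 CPM and 161, 247 and 313 CPM.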

How the data were processed

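The authors selected poly A RNA, sequenced both ends of each fragment and used STAR within bcbio-nextgen to align to mm10. The authors deposited raw whole-number counts per gene, which are used here. The counting tool, annotation release and strand setting are not stated. The deposited table of normalized values was not used.

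Genotypes and heart numbers come from the labels. Genes were filtered with filterByExpr, scaled by TMM and tested with edgeR 4.0.16 (R 4.3.3, quasi-likelihood, Benjamini-Hochberg over 19372 genes), and 3 hearts of each genotype were compared without a covariate. SE is the absolute log2 fold change divided by the square root of F. CPM use the TMM factors, with a prior count of 2 on the log2 scale. TPM use the union of exons in GENCODE (GRCm38), in which 54495 of the 54532 genes were found. The steps were tested on simulated data.

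All 37 members are named. Those with an unadjusted *P* under 0.05 and the 2 highest per length in WT hearts of each role group are given in full. So are *Smyd1* and the genes of the context lists called by edgeR. The 2 highest by CPM of each context list are given per heart, not all with a fold change, SE and adjusted *P*. *Myh7*, *Ttn*, *Myl3* and other members given per heart beyond this rule, and the marker genes singled out, were chosen after their values were seen. The members and lists were chosen with earlier results of these data known. A listed marker gene is not reported here.

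Alternatives were DESeq2 1.42.0, RLE and upper-quartile factors, scaling without the members, leaving out haemoglobin genes and those of the mitochondrial genome, no filter, at least 10 counts in every heart, no limit on the fold change, the replicate number as a block, leaving out each heart, and, for lengths, raw counts and the longest transcript. The length of the principal transcript was added after seeing the data.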

Additional observations from a re-analysis of the deposited data

How the results depend on the processing

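With DESeq2, RLE or upper-quartile factors, scaling without the members, leaving out haemoglobin genes and those of the mitochondrial genome, or no filter on low counts, edgeR or DESeq2 called 0 members. In each of these, 25 members lay below 0 and 0 changed sign. With at least 10 counts in every heart 36 members could be tested, with the same 0 called. DESeq2 gave an unadjusted *P* under 0.05 to *Myh6* and *Myh7*. Over all genes it called 1749, of which 623 lower, against 830 and 275 by edgeR.

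The replicate block in edgeR called 59 genes, of which 3 lower, and 0 members, and 0 of the 3 context lists, *Unc45a* included (adjusted *P*=0.140). The member median was then -0.14, 27 members lay below 0, *Tmod1* and *Trim55* changed sign, and *Myh6* and *Ttn* had an unadjusted *P* under 0.05. Deviations of same-numbered hearts had correlations of -0.216, -0.0538 and -0.182, and no heart correlated best with its own number. The hearts are different embryos and their sample titles name no litter or batch, so the numbers were not taken as pairs.

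Leaving out each heart in turn, edgeR called 97 to 1256 genes, of which 8 to 447 lower, and 0 to 1 members. Members with an unadjusted *P* under 0.05 numbered 0 to 5, with 0 without WT heart 1 or WT heart 2, and 5 without *Smyd1-KO* heart 1 (*Myh7*, *Myh7b*, *Trim63*, *Nexn*, *Mypn*). The member median ran from -0.34 to 0.15. These fits have fewer hearts, and otherwise the cause was not tested.

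The gene pairs kept their overlap or lack of it on every length scale. With raw counts the mean share in WT and *Smyd1-KO* hearts was 67.0% and 45.2% for *Myh6*, 15.7% and 17.3% for *Tnni3*, 20.6% and 23.7% for *Myl2*, and 25.5% and 30.9% for *Myl3*. With principal transcripts, chosen after seeing the data, it was 67.4% and 45.6% for *Myh6*, 19.0% and 20.9% for *Tnni3*, 14.7% and 17.1% for *Myl2*, and 25.6% and 31.0% for *Myl3*. *Trim55*, the highest of the titin group at rank 20 by the union of exons, ranked 23 under the longest and the principal transcript, where *Myom1* ranked above it at 19 and 21. *Actn2* ranked 14 in place of 13 with principal transcripts, where *Csrp3* was the highest Z-disc gene at rank 13. The share of counts on members stayed within the SD between hearts without haemoglobin and mitochondrial genes.

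Depth limits *Myom2*, *Xirp2*, *Myoz2* and *Mypn*, which rest on 5 to 133 counts per heart. With 3 hearts of each genotype, a test that misses its threshold does not show that levels were equal. Cell types were not separated, and splicing and protein were not analysed here.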
